A study of Homo sapiens with 41 samples.

Results

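The proteasome genes were defined here by their symbols, as protein-coding genes whose symbol starts with PSMA, PSMB, PSMC, PSMD, PSME or PSMG followed by a number. The rule used no measured value and found 49 of the 20149 protein-coding genes in the annotation. Elongin A, the transcriptionally active subunit of the Elongin elongation factor, had been mapped in DLD1 cells, an established colon cancer line of human origin. The cells had received no siRNA and were fixed with 1% formaldehyde. Of the 41 samples of the series, 7 stand behind 3 peak lists. CUT&RUN, in which an antibody-bound nuclease cuts out the chromatin around its target, gave 1 list from 2 goat antibody replicates with 1 goat IgG control, and 1 list from 1 mouse antibody sample with 1 mouse IgG control. ChIP-seq gave the remaining list from 1 sample with 1 input control. The goat antibody list holds 8720 peaks, the mouse antibody list 2338 and the ChIP-seq list 186. No list holds a value per replicate or a read total, so the depth is unknown and no value has a replicate error. A gene without a peak is one at which none was called at this depth.

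The 26S proteasome degrades proteins marked with ubiquitin. Its 20S core is a barrel of alpha rings, which gate the entrance, and beta rings, which carry the proteolytic sites. The 19S regulatory particle caps the core, binds ubiquitin chains, removes them and threads the substrate inwards with a ring of ATPases. Other activators can take the place of the 19S particle, and dedicated chaperones assemble both parts. The subunits are needed in fixed proportions, and the NFE2L1 transcription factor is known to raise their genes together, through antioxidant response elements, when the proteasome is inhibited. The symbol rule also took PSMC3IP and PSME3IP1, which encode interacting proteins and not subunits. They were kept, so 47 members encode subunits, activators or chaperones.

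Of the 49 members, 19 had a peak in at least 1 list within the gene or 1 kb on either side. They made up 38.8% of the members (Wilson 95% interval 26.4 to 52.8, covering counting error only), against 25.1% of all protein-coding genes. The 20S rings held 8 of the 13 members with a goat antibody peak, 8 of their 14 genes, against 3 of 17 genes of the 19S particle, where 21.7% of all protein-coding genes had such a peak. The difference between the particles was not tested. Without the flanks the 8 became 5, and with a fold of at least 5 it became 2 and the 19S count 0. The 17 genes leave out ADRM1, a 19S subunit outside the symbol rule, which had a goat antibody peak with a fold of 5.35. ChIP-seq peaks lay at PSMD3 and PSMA1, and PSMB3 was the member whose peaks overlapped between lists.

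The stretches below are from hg19, in the direction of the member named, and were chosen because the results turn on them. They are both ChIP-seq peaks, the PSMB3 position that the antibodies shared, the PSMB1 peak between that gene and TBP, and the member peak with the highest rank in the mouse antibody list. Each is the longest part of the peak free of annotated exons. Capitals mark a match on either strand to TGACNNNGC, the core of the antioxidant response element, to CCAAT, to CCGGAAG, an ETS factor core, or to GCGCATGC, part of a nuclear respiratory factor 1 site.
PSMD3, ChIP-seq, chr17:38136821-38137059, plus strand: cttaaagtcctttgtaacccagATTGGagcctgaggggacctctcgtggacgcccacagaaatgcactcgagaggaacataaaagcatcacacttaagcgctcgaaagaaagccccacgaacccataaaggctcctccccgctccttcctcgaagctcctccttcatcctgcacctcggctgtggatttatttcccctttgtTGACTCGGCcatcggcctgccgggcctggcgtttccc
PSMA1, ChIP-seq, chr11:14541992-14542177, minus strand: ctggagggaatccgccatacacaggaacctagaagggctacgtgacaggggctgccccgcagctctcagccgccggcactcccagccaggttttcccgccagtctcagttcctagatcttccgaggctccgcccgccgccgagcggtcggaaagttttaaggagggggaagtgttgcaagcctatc
PSMB3, shared part of the goat and mouse antibody peaks, chr17:36908406-36908695, plus strand: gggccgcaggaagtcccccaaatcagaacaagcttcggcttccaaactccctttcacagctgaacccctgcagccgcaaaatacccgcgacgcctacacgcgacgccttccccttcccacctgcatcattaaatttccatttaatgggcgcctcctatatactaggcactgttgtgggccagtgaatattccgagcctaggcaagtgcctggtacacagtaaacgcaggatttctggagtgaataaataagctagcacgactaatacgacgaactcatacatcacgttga
PSMB1, goat antibody, chr6:170862992-170863230, minus strand: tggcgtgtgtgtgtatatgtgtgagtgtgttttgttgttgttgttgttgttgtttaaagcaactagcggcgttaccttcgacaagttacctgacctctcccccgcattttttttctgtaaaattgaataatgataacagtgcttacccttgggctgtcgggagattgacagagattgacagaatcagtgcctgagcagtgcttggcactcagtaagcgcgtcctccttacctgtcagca
PSMB7, mouse antibody, chr9:127153223-127153442, minus strand: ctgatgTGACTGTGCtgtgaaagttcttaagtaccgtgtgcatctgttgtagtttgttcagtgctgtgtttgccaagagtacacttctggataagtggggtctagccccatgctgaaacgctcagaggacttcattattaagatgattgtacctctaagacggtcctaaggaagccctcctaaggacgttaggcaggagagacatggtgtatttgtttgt
The PSMD3 stretch ended 1 base before the start site of the canonical transcript and held TGACNNNGC and CCAAT once each. The PSMB7 stretch, inside an intron, held TGACNNNGC once. None of the 4 motifs occurred in the PSMA1, PSMB3 and PSMB1 stretches. The PSMA1 stretch covers 186 bp of a peak of 392 bp and leaves out its summit.

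The share of members with a peak was set beside that of all protein-coding genes in each list. In the goat antibody list, 13 of 49 members had a peak (26.5%, interval 16.2 to 40.3), against 21.7% of all protein-coding genes. This share was near the background, and with a fold of at least 5 it was below it, at 6.12% against 8.70%. In the mouse antibody list, 7 of 49 members had a peak (14.3%, interval 7.10 to 26.7), against 7.79%, and PSMB8 and PSMB9 shared 1 peak. In the ChIP-seq list, 2 of 49 had one (4.08%, interval 1.13 to 13.7), against 0.784%. The mouse antibody interval included its background and the ChIP-seq interval did not, but the latter rests on 2 genes. The members share the same libraries, and the differences from the background were not tested. The background takes every protein-coding gene, whatever its expression, while the paper reports stronger Elongin A signal at more highly expressed genes.

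**Figure D1:**
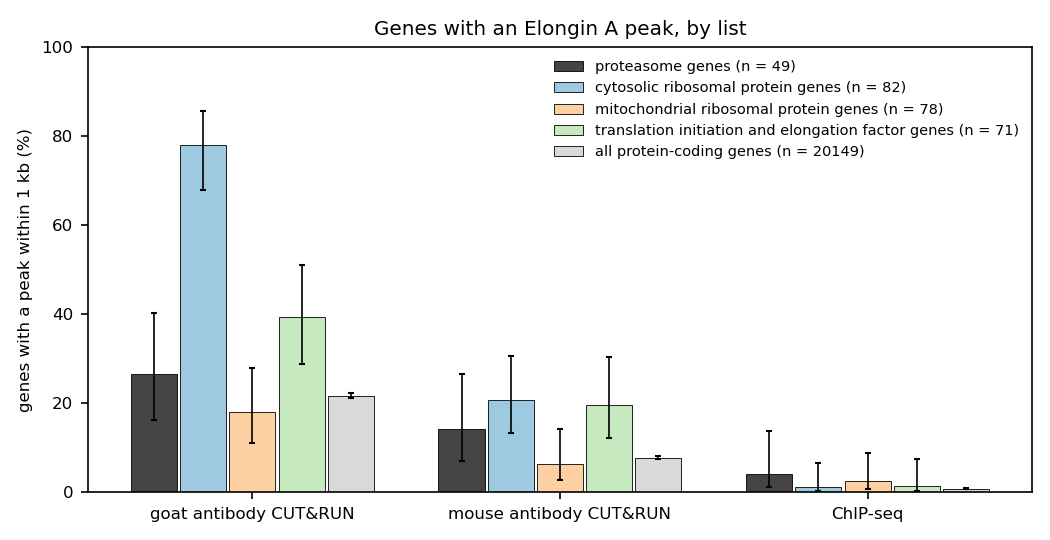
Share of genes with a peak within the gene or 1 kb either side, in percent, for the proteasome genes and the gene groups named in the key. Error bars are Wilson 95% intervals. In the goat antibody list the proteasome genes, at 26.5%, sit near all protein-coding genes, at 21.7%, and below the cytosolic ribosomal protein genes, at 78.0%.

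Other gene families, also taken by symbol, were counted in the same way. The symbols were RPL or RPS, MRPL or MRPS, and EIF or EEF, each followed by a number. The function and expression of each gene were not checked. Of 82 cytosolic ribosomal protein genes, 64 had a goat antibody peak (78.0%, interval 67.9 to 85.6), an interval that did not overlap that of the proteasome genes. Mitochondrial ribosomal protein genes had peaks at 14 of 78 (17.9%, interval 11.0 to 27.9) and translation initiation and elongation factor genes at 28 of 71 (39.4%, interval 28.9 to 51.1), and both intervals overlapped that of the proteasome genes. In the mouse antibody list the shares were 20.7% of cytosolic ribosomal protein genes, 6.41% of mitochondrial ones and 19.7% of translation factors, around the 14.3% of proteasome genes. In the ChIP-seq list 1 cytosolic ribosomal protein gene (1.22%), 2 mitochondrial ones (2.56%) and 1 translation factor gene (1.41%) had a peak. The proteasome genes had 2 (4.08%), and the share of all protein-coding genes was 0.784%.

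Genes of the 20S core were occupied across both kinds of ring. In the goat antibody list, 4 of 7 alpha ring genes (PSMA1, PSMA3, PSMA5 and PSMA7) and 4 of 7 beta ring genes (PSMB1, PSMB2, PSMB3 and PSMB7) had a peak, which was 57.1% of the 14 (interval 32.6 to 78.6), against 21.7% of all protein-coding genes. Without the flanks 5 of the 14 were occupied (35.7%), and with a fold of at least 5 there were 2 (14.3%). The mouse antibody list had peaks at 3 beta ring genes, PSMB3, PSMB5 and PSMB7, and at 0 of 7 alpha ring genes, against 7.79% of all protein-coding genes. PSMB5 carries the chymotrypsin-like activity of the core and PSMB7 the trypsin-like activity. PSMB6, which carries the caspase-like activity, had no peak in any list, like PSMA2, PSMA4, PSMA6 and PSMB4.

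Genes of the 19S particle had a goat antibody share near the background of 21.7%. In the goat antibody list, 2 of 6 ATPase genes (PSMC2 and PSMC6) and 1 of 11 non-ATPase genes (PSMD12) were occupied, together 17.6% of 17 genes (interval 6.19 to 41.0). The 17 genes leave out ADRM1, a ubiquitin receptor of the 19S particle that the symbol rule does not take and that had a goat antibody peak with a fold of 5.35. This interval overlapped that of the 20S rings, and the difference between the particles was not tested. The mouse antibody list had a peak at 0 of the 17, for which the upper Wilson bound is 18.4%. The ChIP-seq list had 1, at PSMD3, a subunit of the 19S lid. The largest base subunits PSMD1 and PSMD2, the ubiquitin receptor PSMD4 and the deubiquitinase PSMD14 had no peak in any list.

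**Figure D2:**
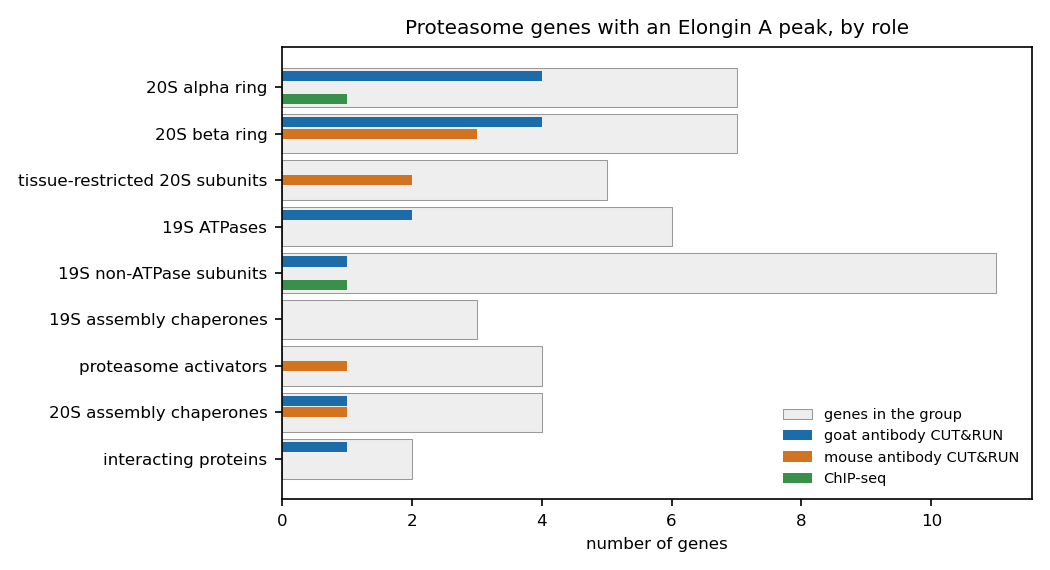
Number of proteasome genes with a peak in each list, by role in the complex; grey bars give all genes of the group. Goat antibody peaks lie at 4 of 7 genes of each 20S ring, and 19S assembly chaperone genes have no peak in any list.

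Outside the constitutive particles there were 3 goat antibody peaks and 3 mouse antibody peaks. These groups have 2 to 5 genes each, too few to be read against the shares of all protein-coding genes, 21.7% for the goat antibody, 7.79% for the mouse antibody and 25.1% for any list. Of the 5 tissue-restricted core subunits, PSMB8 and PSMB9 shared a single mouse antibody peak, whereas PSMB10, PSMB11 of the thymus and PSMA8 of the testis had none. Of the 4 activators, PSME2, a subunit of the 11S regulator, had a mouse antibody peak, and its partner PSME1, PSME3 and PSME4 had none. Of the 4 chaperones of 20S assembly, PSMG2 had goat antibody peaks and PSMG3 a mouse antibody peak, and of the 3 chaperones of 19S assembly (PSMD5, PSMD9 and PSMD10) none had a peak. Of the interacting proteins, PSME3IP1 had a goat antibody peak and PSMC3IP none.

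Fold enrichment, the authors' ratio of signal over the local control, put the member peaks in the middle of the goat antibody list. The 17 peaks at the 13 members ran from 3.21 to 6.61 with a median of 4.31, where the whole list had a median of 4.32. Of these peaks, 8 lay above the list's median and 3 had a fold of at least 5 (17.6%, against 30.1% of the list). The highest was at PSMG2, with 6.61, rank 719 of 8720. PSMA3 and PSMA7 followed, each with 1 peak of 5.17, and the lowest was PSMB3, with 3.21. The strongest peaks of PSMA1, PSMD12, PSMB2, PSMC6, PSMB1, PSMB7 and PSMC2 lay close together, at 4.49, 4.49, 4.44, 4.39, 4.31, 4.24 and 4.15. PSME3IP1, with 3.63, and PSMA5, with 3.31, stood nearer the low end. At PSMA3, PSMA7, PSMB2 and PSMG2 there were 2 peaks each, and at the other 9 members there was 1.

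The 6 mouse antibody peaks at members had folds from 4.03 to 8.52 and a median of 4.68, beside 4.36 for the list. PSMB7 had the highest, 8.52, which was rank 14 of 2338. PSMB5 had 6.06, rank 168, and the peak shared by PSMB8 and PSMB9 had 5.06, rank 580. PSME2 with 4.30, PSMG3 with 4.18 and PSMB3 with 4.03 lay below the list's median. Folds of different lists have different controls and were not compared.

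In the ChIP-seq list, the PSMD3 peak had a fold of 24.7, rank 13 of 186, and the PSMA1 peak a fold of 16.2, rank 41. Both lay above the list's median of 9.99. Neither gene had its ChIP-seq peak overlapped by a CUT&RUN peak, and PSMD3 had none at all in the CUT&RUN lists.

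**Figure D3:**
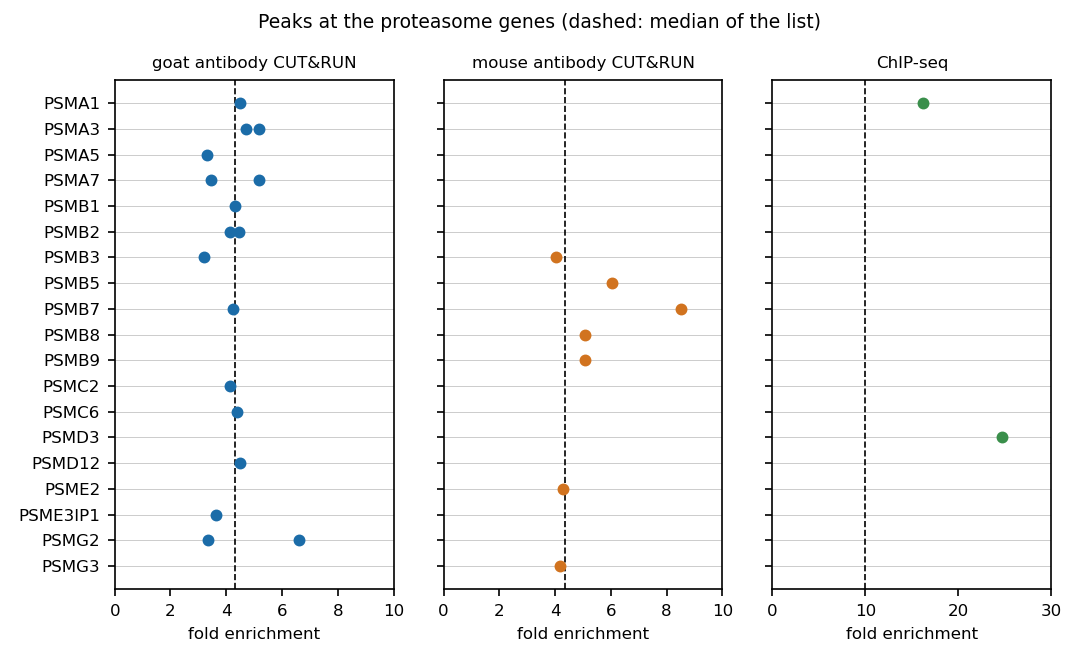
Fold enrichment of each peak (horizontal axis, linear) at the 19 members with a peak, 1 panel per list; the ChIP-seq axis has another range. The dashed line is the median of the whole list. Goat antibody points lie on both sides of it, from 3.21 to 6.61, and the PSMB7 point of 8.52 stands highest in the mouse antibody panel.

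Peaks were next placed within the genes, by their centre and the transcripts of the member itself. The promoter was taken as 1000 bp upstream to 100 bp downstream of any start site, and the transcript end region (TTS) as 100 bp upstream to 1000 bp downstream. Of the goat antibody peaks at members, 6 of 17 lay in a promoter, 10 in an intron, 1 in the TTS of a PSMA3 transcript and 0 in an exon. That PSMA3 summit lay 833 bp downstream of the start site of the canonical transcript. By basic protein-coding transcripts alone the peak was intronic. The corresponding shares over all protein-coding genes were 27.8% promoter, 55.6% intron, 9.59% TTS and 5.04% exon, so the members had about the same division. Of 7 gene and peak pairs in the mouse antibody list, 5 were in a promoter, against 33.3% over all genes, and the peaks at PSMB7 and PSMG3 were intronic. Both ChIP-seq peaks were in a promoter, against 64.9%.

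Counted by gene, a promoter peak was found at 6 of 49 members in the goat antibody list (12.2%, interval 5.73 to 24.2), against 8.97% of all protein-coding genes. In the mouse antibody list 5 of 49 had one (10.2%, interval 4.44 to 21.8), against 2.92%, and in the ChIP-seq list 2 of 49 (4.08%, interval 1.13 to 13.7), against 0.541%. PSMB3 was the member with a promoter peak in more than 1 list. The mouse antibody count includes PSMB8 and PSMB9, which share 1 peak. By basic protein-coding transcripts alone that peak was intronic in PSMB9, which left 4 promoter pairs in place of 5. The intervals for the mouse antibody and ChIP-seq lay above their backgrounds, but they take members as independent. The ChIP-seq interval rests on 2 genes, and the differences were not tested.

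Distances were also taken from the start site (TSS) of the canonical transcript, 1 per gene, which does not depend on gene length. A goat antibody summit lay within 1 kb of it at 10 of 49 members (20.4%), against 8.26% of all protein-coding genes. The median distance from the TSS to the nearest goat antibody summit was 36.1 kb for the members and 88.5 kb for all genes, and 24.5% of members against 16.2% of genes had a summit within 10 kb. The mouse antibody had a summit within 1 kb at 4 of 49 (8.16%), against 2.79%. The ChIP-seq list had one at 2 of 49 (4.08%), against 0.599% of the 18867 genes on chromosomes with a ChIP-seq peak. These shares were higher at the members in each list, and the difference was not tested.

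The goat antibody summits within 1 kb of the canonical TSS were split between its sides. The planned rule took the nearest annotated start site of the member, by which 5 lay upstream and 7 downstream. With the 5′ end of the gene, 5 lay upstream and 3 downstream. The distances that follow are from the canonical TSS. At PSMA5 (-114 bp), PSMB2 (-360 bp), PSMB3 (-437 bp), PSMB1 (-714 bp) and PSME3IP1 (-110 bp) the summit lay upstream. At PSMC6 (108 bp), PSMC2 (111 bp), PSMA1 (594 bp), PSMD12 (827 bp) and PSMA3 (833 bp) it lay downstream. All 4 mouse antibody summits within 1 kb lay upstream of the canonical TSS, at PSMB5 (-203 bp), PSMB3 (-404 bp), PSME2 (-444 bp) and PSMB8 (-484 bp). When any annotated start site of the gene was allowed, 1 of those 4 remained upstream of the nearest one and 3 were downstream. By the canonical TSS, the ChIP-seq summits were the closest of the member summits, at -14 bp for PSMA1 and -37 bp for PSMD3.

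**Figure D4:**
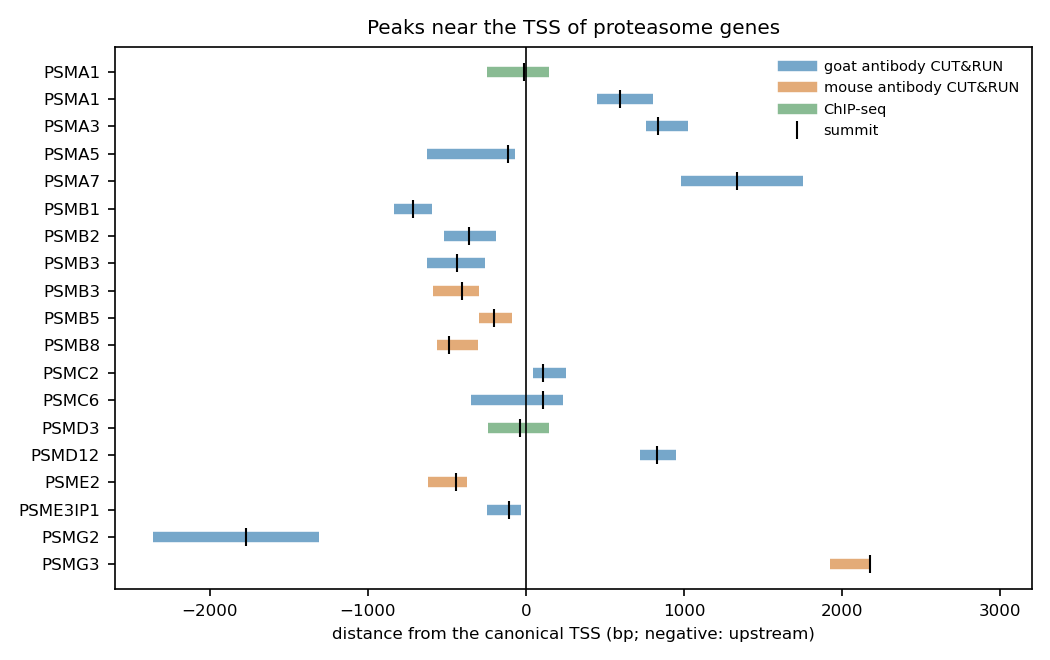
Peaks whose summit lies within 2.5 kb of the canonical TSS of a member. Bars give the extent of each peak in bp from the TSS, with negative values upstream, and ticks give the summit. The ChIP-seq peaks of PSMA1 and PSMD3 span the TSS, with summits at -14 and -37 bp, and the goat and mouse antibody bars of PSMB3 lie on each other.

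Several promoter peaks lay where another gene starts nearby, so they cannot be given to the member alone. The PSMB1 peak lay between PSMB1 and TBP, the TATA-binding protein gene, and its summit was 348 bp upstream of the canonical TBP start and 714 bp upstream of that of PSMB1. The PSME3IP1 peak lay between that gene and RSPRY1, whose canonical start was 180 bp from the summit. The PSME2 summit was 444 bp upstream of the canonical starts of both PSME2 and RNF31, and 494 bp upstream of that of an unnamed protein-coding gene. At PSMA1, the ChIP-seq summit was 56 bp upstream of the canonical start of another unnamed protein-coding gene. The goat antibody peak in a PSMA1 intron had its summit 552 bp downstream of that same start. The peak shared by PSMB8 and PSMB9 also lay in or within 1 kb of PSMB8-AS1 and TAP1, a peptide transporter of antigen presentation, in the major histocompatibility region. It lay 484 bp upstream of the canonical PSMB8 start but 9661 bp upstream of that of PSMB9, which it reached through a longer annotated transcript.

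Of the member peaks, 7 of 17 goat antibody summits and 2 of 6 mouse antibody summits lay over 1 kb from the canonical TSS. PSMB7, with a span of 62.0 kb, had a goat antibody summit 58017 bp and a mouse antibody summit 24392 bp downstream of its TSS, with 33115 bp between the peaks. PSMA3 had its second goat antibody peak 25857 bp downstream, near the end of the gene and within the antisense transcript PSMA3-AS1. PSMB2 had a goat antibody summit 3913 bp and PSMG3 a mouse antibody summit 2173 bp downstream, both in an intron. PSMA7 had a peak at 1334 bp and another at 6242 bp, near the end of this gene of 6.71 kb. Both PSMG2 peaks, 1771 and 8530 bp upstream of the canonical TSS, lay outside the canonical transcript and its flanks, and inside the neighbouring gene CEP76. With the canonical transcript alone, an alternative chosen after seeing the data, PSMG2 and PSMB9 were no longer occupied.

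Peaks of different lists overlapped at 1 member. At PSMB3, the goat antibody peak (chr17:36908366-36908736) and the mouse antibody peak (chr17:36908406-36908695) shared 290 bp, and their summits were 33 bp apart. This was 1 of 17 goat antibody member peaks (5.88%), beside 8.33% of that list, and 1 of 6 mouse antibody member peaks (16.7%), beside 32.4% of that list. At PSMA1 the goat antibody peak lay 303 bp downstream of the ChIP-seq peak without touching it. Neither ChIP-seq peak at a member overlapped a goat antibody peak, which 41.4% of ChIP-seq peaks did, or a mouse antibody peak, which 23.1% did. Counted by gene, 16 members had peaks in 1 list, 3 in 2 lists (PSMA1, PSMB3 and PSMB7) and 0 in all 3. The goat and mouse antibody lists shared 2 members, 15.4% of the goat antibody members and 28.6% of the mouse antibody members, against 21.8% and 60.9% over all protein-coding genes. With counts this small, none of these differences was tested.

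Gene length bears on any count by overlap, because a longer gene offers more room. The members had a median length of 16.0 kb, and all protein-coding genes 27.2 kb. The 13 members with a goat antibody peak had a median of 28.7 kb and the 36 without one 12.4 kb. All protein-coding genes were therefore divided by length into groups of equal size, at 13.9 and 50.4 kb. Among the shortest, 2 of 22 members had a goat antibody peak (9.09%), against 13.2% of genes of that size. In the middle group 8 of 19 did (42.1%), against 19.7%, and among the longest 3 of 8 (37.5%), against 32.3%. The goat antibody share thus stood above that of like-sized genes mainly in the middle group. Length here is the whole annotated span. Among the longest, PSMA1 and PSMG2, both with a goat antibody peak, and PSMG4, without one, have canonical transcripts of 15511, 22699 and 9103 bp. For the mouse antibody the largest gap was among the shortest members, with 4 of 22 (18.2%) against 4.33%, followed by 2 of 19 (10.5%) against 6.98% and 1 of 8 (12.5%) against 12.1%.

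**Figure D5:**
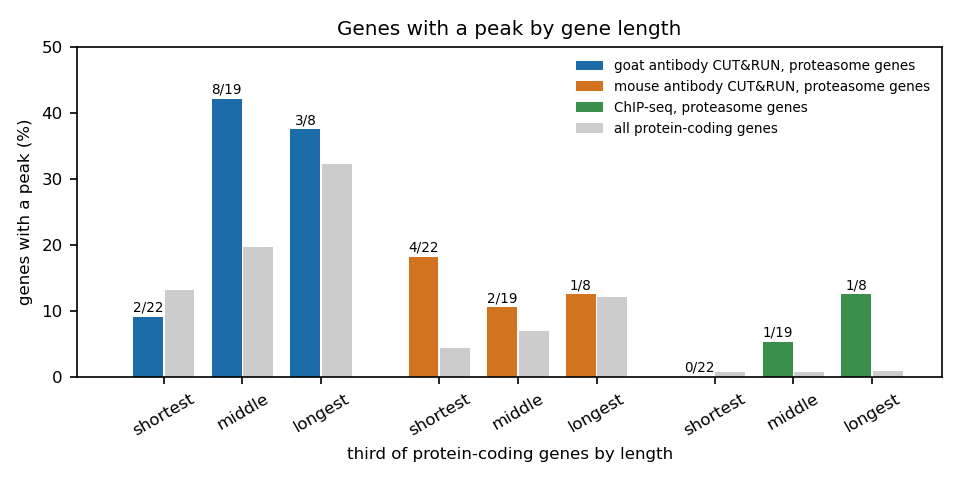
Share of genes with a peak, in percent, in 3 length groups of equal size over all protein-coding genes. Coloured bars are the proteasome genes with their counts above, and grey bars are all protein-coding genes. The goat antibody bar is highest in the middle group, with 8 of 19 members, and the mouse antibody bar in the shortest, with 4 of 22.

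Motifs were counted in the promoters of the members, from 250 bp upstream to 50 bp downstream of the canonical TSS, on both strands. TGACNNNGC occurred in 14 of 49 member promoters (28.6%), against 14.0% of all protein-coding promoters, and CCGGAAG in 19 of 49 (38.8%), against 14.0%. CCAAT occurred in 22 (44.9%), against 35.9%, and GCGCATGC in 2 (4.08%), against 4.26%. Members with and without a peak had these letters at like shares. TGACNNNGC was in 6 of 19 members with a peak and 8 of 30 without, CCGGAAG in 7 of 19 and 12 of 30, and CCAAT in 9 of 19 and 13 of 30. No motif contains another, though the ends of matches can overlap. A match describes the letters and not binding, and the differences were not tested.

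In windows of 201 bp centred on the summits, CCAAT occurred at 7 of 17 goat antibody member peaks (41.2%), against 25.1% of the list, and at 0 of 6 mouse antibody member peaks, against 23.1%. TGACNNNGC occurred at 1 of 17, at PSMC6, against 7.03% of the list, and CCGGAAG at 1 of 17, at PSME3IP1, against 1.57%. Of the ChIP-seq windows, that of PSMD3 held TGACNNNGC, with 2 matches, and 8.06% of the list held it. The goat antibody windows at members had a median GC content of 48.3%, against 44.3% for the list, which bears on any count of letters. The 32 bp word at each of the 25 distinct member summits occurred once in the genome.

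Other genes of the ubiquitin and proteasome pathway, 26 in all, were counted in the same way. Goat antibody peaks lay at 6 of 26 (23.1%), against 21.7% of all protein-coding genes, and mouse antibody peaks at 4 (15.4%), against 7.79%. ChIP-seq peaks lay at 0, against 0.784%, and 9 (34.6%) had a peak in at least 1 list, against 25.1%. The differences were not tested. The polyubiquitin gene UBB had a promoter peak of 4.65, and the ADRM1 peak lay in its promoter. RPS27A, which encodes ubiquitin fused to a ribosomal protein and so also counts among the ribosomal genes, and ZFAND5 also had goat antibody peaks. The mouse antibody had promoter peaks at DDI2, the protease that activates NFE2L1 (fold 4.52), and VCP, an unfolding ATPase that delivers substrates (fold 4.01), and an intron peak at RAD23B (fold 4.95).

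The label of the cells was checked against markers in the lists alone. Goat antibody peaks lay at 5 of 8 colon epithelial marker genes (EPCAM, CDH1, KRT8, KRT18 and CDX2) and mouse antibody peaks at 3 of 8, against 21.7% and 7.79% of all protein-coding genes. KRT20, CDX1 and VIL1 had no peak in any list, and the ChIP-seq list had none at any marker. Of 4 marker genes listed for other cell types, 3 were among the annotated protein-coding genes. Of these 3, 1 had a peak in each CUT&RUN list. This was PTPRC, a leukocyte gene, with intron peaks whose folds ran from 3.21 to 5.55. RNA levels were not analysed here.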

How the data were processed

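Elongin A CUT&RUN and ChIP-seq peak lists from DLD1 cells were used as deposited. The authors aligned reads to hg19 with Bowtie2, removed duplicates with Picard and called peaks with MACS2 at default settings; for the mouse antibody list these steps were not given in the sources used here beyond the tool names in the labels. Each list joins its samples, so the 2 goat antibody replicates could not be compared. The deposited fold enrichment is a ratio over the local control. Each q-value was deposited on the −log10 scale as the peak caller gave it. The lowest was 1.30 in each CUT&RUN list and 2.06 in the ChIP-seq list, so a common threshold cannot be assumed. The deposited p-value and score were not used.

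Gene models were those of GENCODE release 44 in their GRCh37 version, and sequence was read from the GRCh37 genome. A gene counted as occupied when a peak overlapped it, with 1 kb on either side, by at least 1 bp. Shares have Wilson 95% intervals, which cover counting error only. Depth is unknown. No test was run, because members share libraries and no value per replicate is held. The members, role groups, motifs and other pathway genes were chosen with earlier results of these data known. Named genes were members with a peak in 2 or more lists, the 10 with the highest goat antibody fold, members with a peak in the TTS, exon or intron part, members named where a role group was counted, and pathway genes with a peak, apart from some items that are not reported here. Promoter motifs were counted in the hg19 sequence of all 20149 genes. Alternatives were other q-value and fold thresholds, flanks, overlap rules, transcripts and start sites. Gene and part assignment was checked on planted peaks. The analysis used Python 3.11.15, numpy 2.4.6, pandas 2.3.3 and matplotlib 3.10.9. RNA-seq, 4sU-seq and RNA polymerase ChIP-seq were not analysed here.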

Additional observations from a re-analysis of the deposited data

How the results depend on the processing

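No paired analysis was possible because the lists carry no value per replicate, and for the same reason no replicate could be left out. With a fold of at least 5 required, occupied members fell to 3 in the goat antibody list and 4 in the mouse antibody list, and stayed at 2 in the ChIP-seq list. The goat antibody share, 6.12%, was then below that of all protein-coding genes, 8.70%, where it had been above, and the mouse antibody share, 8.16%, remained above its background of 2.36%. The 4 mouse antibody members had 3 peaks at this fold, as PSMB8 and PSMB9 share 1. Occupied 20S ring genes were then 2 of 14 and 19S genes 0 of 17 in the goat antibody list, leaving out ADRM1, whose peak passes this fold. Without flanks, 5 of the 14 ring genes were occupied, and 3 of the 17 19S genes. The role groups were put through alternatives after seeing the data, as was the canonical transcript. Otherwise the goat antibody list had between 10 and 14 occupied members, the mouse antibody list between 5 and 7 and the ChIP-seq list 2. With the canonical transcript the counts were 12, 6 and 2, against 19.8% and 6.87% of all protein-coding genes for the goat and mouse antibodies. With the 5′ end of the gene as its TSS, 1 ChIP-seq summit in place of 2 lay within 1 kb. Ranked by q-value, the median percentile of member peaks in their list was 43.9 in place of 48.7 for the goat antibody, 60.1 in place of 60.9 for the mouse antibody and 83.9 in place of 85.5 for ChIP-seq. The other 53 values were counts within 1.5 times the reported ones.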
